A study of Danio rerio with 18 samples.

Results

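The embryonic and larval globin genes of the zebrafish were followed in dissected intestine and kidney of larvae that differed in their microbes or in the gene chd8. The set held 9 names, 4 of the alpha chain (hbae1.1, hbae1.3, hbae3, hbae5) and 5 of the beta chain (hbbe1.1, hbbe1.2, hbbe1.3, hbbe2, hbbe3), and its members were the rows of the count tables that carry these symbols. Of the 32520 gene rows, 5 did so: hbae1.1 (ENSDARG00000089475), hbae1.3 (ENSDARG00000089124), hbae3 (ENSDARG00000079305), hbae5 (ENSDARG00000045142) and hbbe3 (ENSDARG00000038147). The other 4 beta chain names had no row of their own. The gene name table gave 7 rows the human-style beta chain symbol HBE1, which does not say which zebrafish gene each one is, so these rows were kept apart from the members and are given beside them by identifier.

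Hemoglobin carries oxygen as a tetramer of alpha and beta globin chains, each with a heme group. Zebrafish make embryonic and larval chains in the first red cells and replace them with adult chains as the fish grows, and the larval kidney becomes the site of later blood formation. The alpha and beta genes lie side by side in clusters of close copies, and reads that match several copies can be divided among them or lost, depending on how they were counted.

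All fish were of the AB strain. Intestines were taken at 5 days and kidneys at 7 days after fertilization, so tissue and age cannot be told apart. In each tissue 3 libraries came from conventionally raised wild type fish (CV), 3 from germ-free wild type fish (GF) and 3 from chd8-/- fish, 18 libraries in 6 groups. CHD8 is a chromatin remodelling enzyme of the chromodomain helicase family. Per the labels' protocols, GF embryos had been through antibiotics, polyvinylpyrrolidone and hypochlorite before being raised in sterile medium. The CV embryos came from the same fertilized eggs and did not go through these steps, so the absence of microbes and these treatments cannot be told apart. The chd8-/- parents were mated in water of the circulating system and the parents of the other groups in autoclaved water, so genotype and rearing cannot be told apart. Tissues of pooled larvae were used, 30 for CV and GF intestine, 40 for chd8-/- intestine, 50 for CV and GF kidney and about 70 for chd8-/- kidney. Whether these numbers are per library, and whether replicates came from separate clutches, is not given in the sources used here, and p-values measure the spread between these samples.

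Library totals were 26864797 to 36624972 counts for intestine and 27291597 to 31268453 counts for kidney. The 6 enterocyte marker genes summed to 8041 to 14416 CPM (read counts after scaling for sequencing depth) in intestine libraries and to 121 to 603 CPM in kidney libraries. Of the 9 kidney tubule and podocyte marker rows tested in CV fish, 6 were higher and 2 were lower in kidney than in intestine, while the list of 10 rows summed to 831 to 1028 CPM in intestine CV and to 485 to 574 CPM in kidney CV. The kidney libraries also held skeletal muscle markers at 26854 to 51076 CPM and exocrine pancreas markers at 21870 to 46346 CPM. Skin keratinocyte markers summed to 1434 CPM in kidney CV replicate 1, against 7775 to 12524 CPM in the other 8 kidney libraries.

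A kidney library went against its label in both checks made, and another in 1 of the 2. Genes called at least 4-fold lower in chd8-/- intestine, 134 of them with globins left out, had a median log2 deviation from the kidney mean of −1.00 in the library labelled GF replicate 2, of −0.93 in the library labelled chd8-/- replicate 2 and of −0.99 in that labelled chd8-/- replicate 3. The library labelled chd8-/- replicate 1 had 0.63, within the 0.23 to 1.05 of the CV libraries and the other two GF libraries. The 64 genes called at least 4-fold higher showed the reverse, 1.04 to 1.102 in the same 3 libraries and −0.69 to −0.37 in the other 6. CHD8 itself was at 46.0 to 51.7 CPM in kidney CV and at 53.8 and 54.1 CPM in GF replicates 1 and 3, but at 33.5 CPM in the library labelled GF replicate 2. The libraries labelled chd8-/- replicates 1, 2 and 3 had 30.2, 34.8 and 39.1 CPM, so the CHD8 level of chd8-/- replicate 1 went with its label and its levels of the 134 and 64 genes did not. Labels were kept as given, and the main kidney values are given with all libraries and without these.

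Members together took 0.00753% to 0.0713% of all counts in a library, and hbae3 took 88.8% to 96.8% of the members' counts. These are shares of reads and not of transcripts, because no gene lengths were used. The summed member level was 171 ± 21.3 CPM in intestine CV, 236 ± 21.2 CPM in intestine GF and 93.0 ± 10.8 CPM in intestine chd8-/- (SD, n = 3 each). In kidney it was 259 ± 116 CPM in CV, 424 ± 263 CPM in GF and 337 ± 265 CPM in chd8-/- (SD, n = 3 each). The spread within a kidney group was thus as large as the differences between the kidney groups.

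The alpha chain gene hbae3 had its values well apart between the groups of the intestine and mixed between those of the kidney. In intestine it was at 180, 138 and 159 CPM in CV, at 208, 242 and 202 CPM in GF and at 77.3, 90.3 and 95.03 CPM in chd8-/- (replicates 1, 2 and 3). Kidney libraries were at 349, 198 and 166 CPM in CV, at 635, 141 and 423 CPM in GF and at 598, 132 and 228 CPM in chd8-/-. All 3 GF intestine libraries were above and all 3 chd8-/- intestine libraries below the CV intestine libraries, whereas the 3 kidney groups overlapped. By mean level the order was kidney GF, kidney chd8-/-, kidney CV, intestine GF, intestine CV, intestine chd8-/-. Neighbours among the first 4 of these overlapped, and the last 3 were separate from each other.

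The tandem copies hbae1.1 and hbae1.3, whose alpha chain reads may be shared, differed from each other in the 3 chd8-/- intestine libraries and in 3 of the 9 kidney libraries. In intestine hbae1.1 was at 5.53, 3.80 and 4.47 CPM in CV, at 6.65, 5.32 and 7.11 CPM in GF and at 0.57, 0.21 and 0.41 CPM in chd8-/-. Kidney libraries were at 7.82, 4.40 and 4.95 CPM in CV, at 15.8, 0.42 and 10.9 CPM in GF and at 15.8, 0.20 and 0.51 CPM in chd8-/-. Every chd8-/- intestine library was below every CV library, and in kidney the library labelled GF replicate 2 and chd8-/- replicates 2 and 3 were low while the other 6 were between 4.40 and 15.8 CPM. Its order by mean was kidney GF, intestine GF, kidney CV, kidney chd8-/-, intestine CV, intestine chd8-/-, and only the last of these was clear of its neighbour.

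hbae1.3 showed no such low libraries. It was at 4.16, 6.92 and 4.77 CPM in intestine CV, at 7.63, 9.64 and 11.0 CPM in intestine GF and at 2.49, 4.42 and 5.30 CPM in intestine chd8-/-. In kidney it was at 14.4, 5.91 and 4.67 CPM in CV, at 20.8, 8.18 and 11.2 CPM in GF and at 21.0, 5.00 and 6.91 CPM in chd8-/-. GF intestine lay above CV intestine in every library, and all neighbours in the order of means, from kidney GF at 13.4 CPM down to intestine chd8-/- at 4.07 CPM, overlapped.

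hbae5, another alpha chain gene, was low in all libraries but 1. It was at 2.68, 2.02 and 1.28 CPM in intestine CV, at 3.30, 2.77 and 2.24 CPM in intestine GF and at 0.44, 0.88 and 1.22 CPM in intestine chd8-/-. In kidney it was at 21.6, 0.44 and 0.89 CPM in CV, at 2.09, 0.81 and 1.67 CPM in GF and at 2.92, 0.68 and 0 CPM in chd8-/-. Kidney CV replicate 1, with 637 counts, stood alone, and a count of 0 in kidney chd8-/- replicate 3 allows a level of up to 0.1096 CPM (3 counts, counting error only). All neighbours in the order of group means of hbae5 overlapped. The beta chain member hbbe3 had 0 to 10 counts per library, 36 in all, and was too low to be tested.

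**Figure D1:**
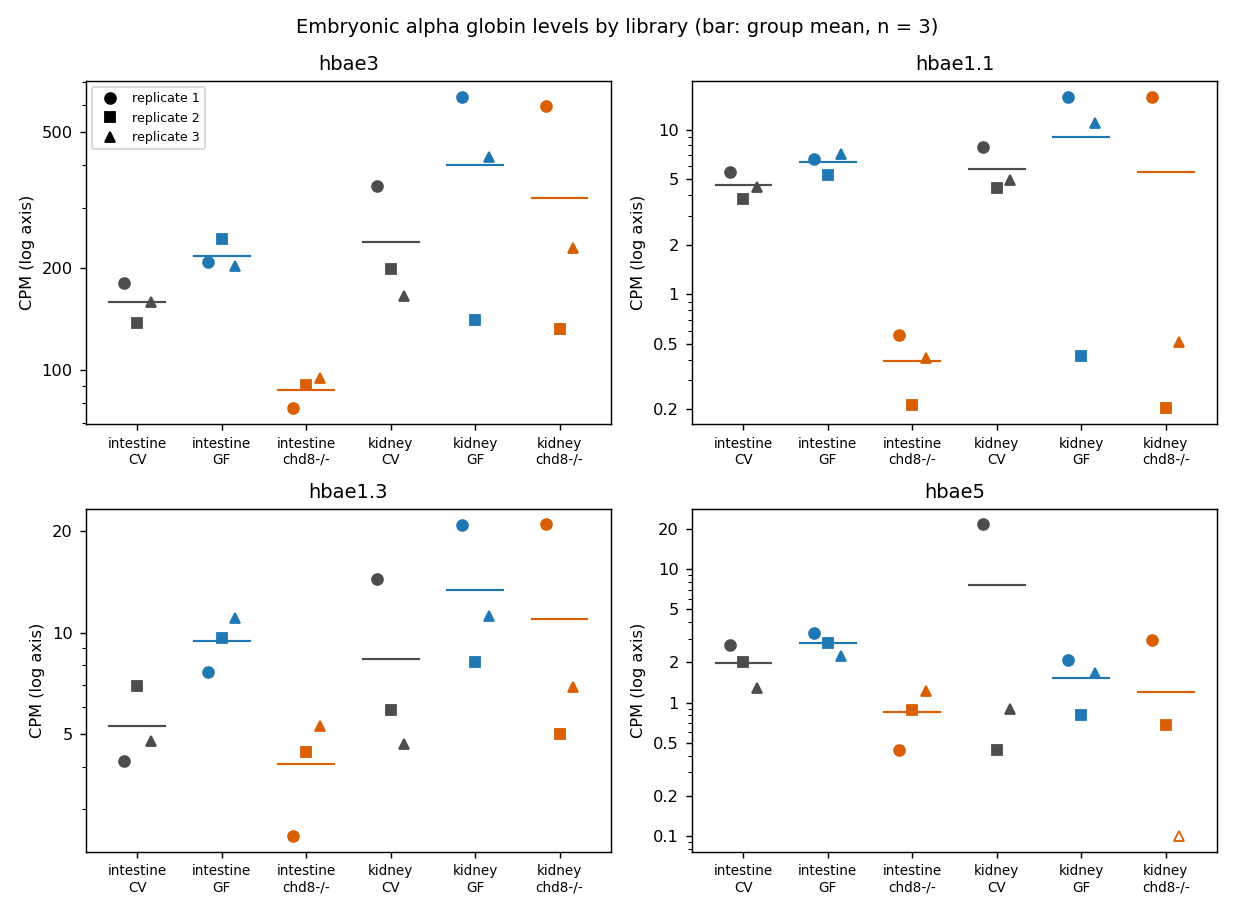
Levels of hbae3, hbae1.1, hbae1.3 and hbae5 in CPM on log axes, with 1 symbol per library by replicate and a bar at the mean of each group of 3. For hbae1.1 the 3 intestine chd8-/- libraries and 3 kidney libraries lie below 1 CPM, and the open triangle of hbae5 marks a library with 0 counts, drawn at 0.1.

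Among the 7 HBE1 rows, 4 had more than 100 counts in all, and the other 3 had 0, 1 and 6. ENSDARG00000113599, which took most of the HBE1 reads, was at 94.2, 75.3 and 96.9 CPM in intestine CV, at 130, 123 and 87.4 CPM in GF and at 51.0, 70.9 and 76.8 CPM in chd8-/-. In kidney it was at 241, 121 and 110 CPM in CV, at 348, 141 and 255 CPM in GF and at 402, 114 and 179 CPM in chd8-/-. GF and chd8-/- each overlapped CV in both tissues, and in intestine every GF library was above every chd8-/- library. ENSDARG00000115405 was at 31.8, 18.4 and 23.7 CPM in intestine CV, at 26.3, 38.3 and 32.8 CPM in GF and at 8.79, 11.2 and 9.44 CPM in chd8-/-. ENSDARG00000087390 was at 29.3, 36.6 and 26.5 CPM in intestine CV and at 15.4, 14.2 and 17.1 CPM in chd8-/-. ENSDARG00000045143 was at 43.9, 28.6 and 41.6 CPM in intestine CV and at 13.6, 27.7 and 16.3 CPM in chd8-/-. In these 3 rows every chd8-/- intestine library was below every CV intestine library. The kidney was again spread within groups: ENSDARG00000115405 ran from 19.1 to 36.2 CPM in CV, from 12.4 to 85.0 CPM in GF and from 15.2 to 75.3 CPM in chd8-/-. ENSDARG00000087390 ran from 25.5 to 41.4 CPM in kidney CV, from 23.7 to 123 CPM in GF and from 25.2 to 105 CPM in chd8-/-. ENSDARG00000045143 ran from 31.2 to 115 CPM in kidney CV, from 31.8 to 119 CPM in GF and from 29.9 to 103 CPM in chd8-/-. In each row the kidney groups overlapped.

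**Figure D2:**
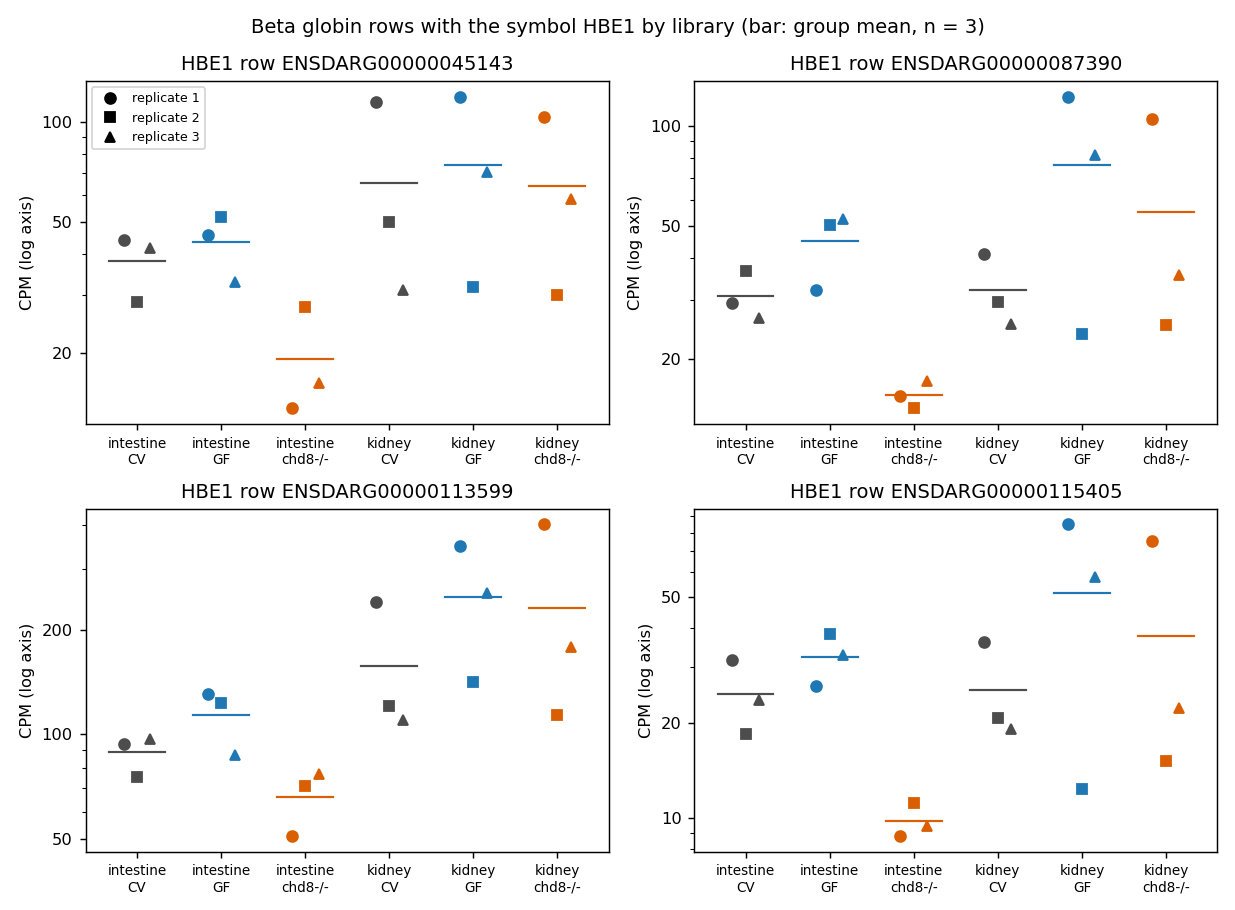
Levels in CPM on log axes of the 4 rows with the symbol HBE1 that had more than 100 counts, with 1 symbol per library by replicate and a bar at the mean of each group of 3. In the kidney the first replicate of each group is the highest of its group in all 4 rows, and intestine chd8-/- has the lowest mean in all 4.

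The summed HBE1 level was 182 ± 20.9 CPM in intestine CV, 234 ± 29.0 CPM in GF and 111 ± 19.1 CPM in chd8-/- (SD, n = 3 each). In kidney it was 280 ± 134, 450 ± 233 and 389 ± 264 CPM. HBE1 counts were 0.925 to 1.39 times the members' counts in the same library.

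The first comparison asked how chd8-/- intestine differed from CV intestine. hbae1.1 and hbae3 were lower in chd8-/- and passed the test, hbae5 and hbae1.3 did not pass, and all 4 fold changes were negative. Thus 2 of the 4 members tested were called at an adjusted p under 0.05 (edgeR's quasi-likelihood test with Benjamini-Hochberg adjustment over 20758 genes), where 9.17% of all genes were called and 5.19% were called lower. DESeq2 called the same 2 members, where 13.2% of all genes were called. The members' median log2 fold change was −1.06, and that of all genes tested was −0.014.

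hbae1.1 fell from 4.60 ± 0.873 CPM to 0.396 ± 0.178 CPM (SD, n = 3 each), with log2 fold change −3.55, SE 0.38 and an edgeR adjusted p of 0.0003415. Its counts in the 3 chd8-/- libraries were 18, 7 and 12, against 113 to 178 in CV. Leaving out any 1 library gave −3.90 to −3.24, with the call kept. hbae3 fell from 159 ± 21.4 CPM to 87.5 ± 9.17 CPM (SD, n = 3 each), with log2 fold change −0.88, SE 0.16 and an edgeR adjusted p of 0.007151. Without chd8-/- replicate 1 it was −0.79 with an edgeR adjusted p of 0.05686, no longer called. hbae5 had −1.25 (SE 0.44, edgeR adjusted p = 0.1058) and hbae1.3 had −0.39 (SE 0.31, edgeR adjusted p = 0.4734).

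In 3 of the 4 members the chd8-/- libraries were all below the CV libraries, a separation that 15.6% of all genes had in that direction. hbae1.3, whose close copy hbae1.1 changed the most, was the member whose groups overlapped.

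Of the 4 HBE1 rows tested, 3 were lower. ENSDARG00000115405 had a log2 fold change of −1.35, SE 0.21 and an edgeR adjusted p of 0.003239, ENSDARG00000087390 of −1.00 (SE 0.17, edgeR adjusted p = 0.004628) and ENSDARG00000045143 of −1.00 (SE 0.26, edgeR adjusted p = 0.03931). ENSDARG00000113599 had −0.44 (SE 0.18, edgeR adjusted p = 0.1599). The call of ENSDARG00000045143 was lost without CV replicate 2, without CV replicate 3, without chd8-/- replicate 1 and without chd8-/- replicate 3, with edgeR adjusted p of 0.1221, 0.09117, 0.1433 and 0.1595 (CV numbered as in the chd8-/- table). With close copies summed into a single row, the 4 alpha members gave −0.90 (SE 0.16), and hbbe3 with the 7 HBE1 rows gave −0.73 (SE 0.17).

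**Figure D3:**
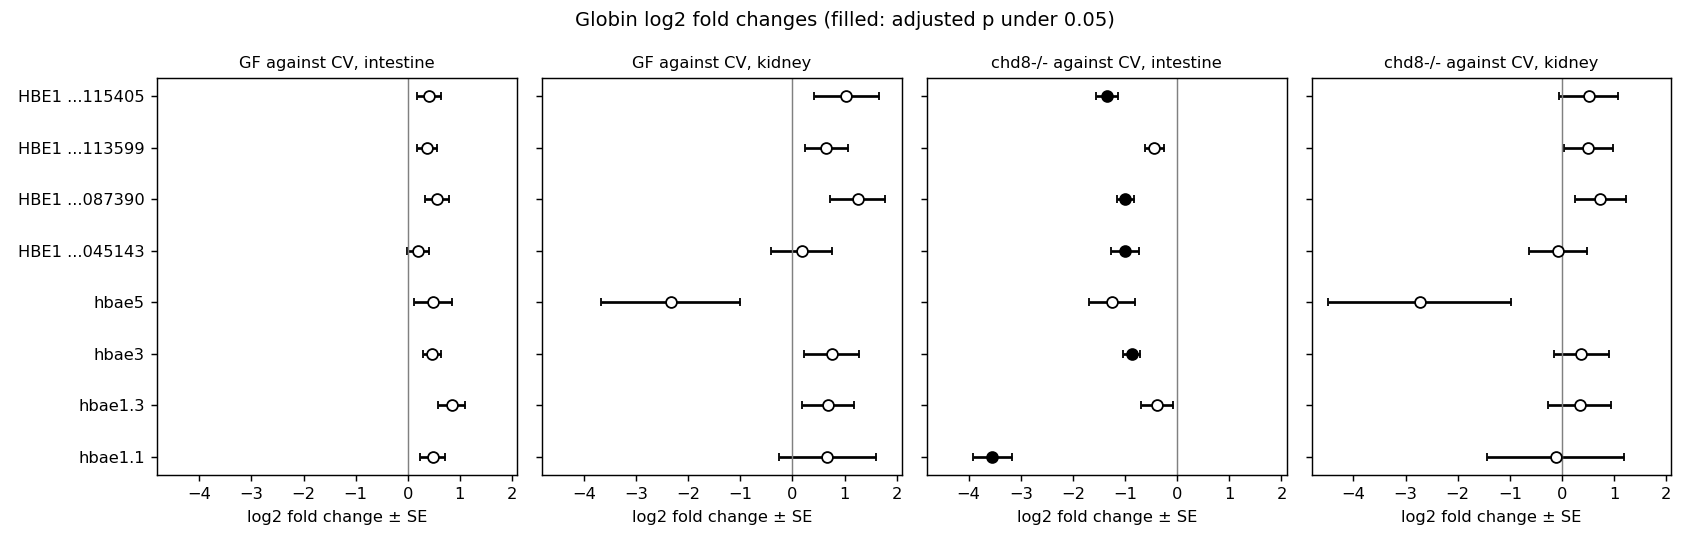
Log2 fold changes with standard errors (edgeR) of the 4 members tested and 4 HBE1 rows, named by the end of their identifiers, in the 4 comparisons with CV, 3 libraries against 3. Filled points have an adjusted p under 0.05 over all genes, and all 5 of them are lower in chd8-/- intestine.

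Among the other globin genes, 3 of the 6 tested were lower in chd8-/- intestine and none was higher, where 5.19% of all genes were called lower. They were hbae1.2, a further copy beside hbae1.1 and hbae1.3, at −1.23 (SE 0.21, edgeR adjusted p = 0.004885), hbae4, an embryonic alpha gene, at −2.65 (SE 0.63, edgeR adjusted p = 0.02613), and cygb2, a cytoglobin, at −1.61 (SE 0.25, edgeR adjusted p = 0.003151). hbae4 was low, at 0.60 to 0.81 CPM in intestine CV and 0.063 to 0.18 CPM in chd8-/-. In the chd8-/- libraries 3 counts are 0.091 to 0.10 CPM, which limits the precision of its fold change. Adult alpha genes hbaa1 and hbaa2 had 2 and 1 counts over all 18 libraries.

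Of 24 globin regulators tested, edgeR called none in chd8-/- intestine, and their median log2 fold change was −0.02. DESeq2 called 2 of them lower: klf1, a transcription factor of red cells, at −1.05 (DESeq2 adjusted p = 0.04264, edgeR adjusted p = 0.06713), and bcl11ab at −0.54 (DESeq2 adjusted p = 0.04219, edgeR adjusted p = 0.06349). Of 27 genes of heme synthesis and iron, 1 was lower, alas2, the red cell enzyme that starts heme synthesis, at −0.86 (SE 0.20, edgeR adjusted p = 0.02427). Its level was 23.5 ± 6.44 CPM in CV and 13.1 ± 1.11 CPM in chd8-/- (SD, n = 3 each). Of 31 rows of red cell membrane and enzyme genes, 3 were higher and 4 lower. hemgn, a nuclear regulator of red cell development, had −1.39 (SE 0.17, edgeR adjusted p = 0.000699). The row ENSDARG00000024560 of SLC4A1, an anion exchanger known from the red cell membrane, had 1.27 (SE 0.18, edgeR adjusted p = 0.002074). The symbol does not say which row is the listed slc4a1a, and the other SLC4A1 row, ENSDARG00000012881, did not rise with ENSDARG00000024560. That row was at 7.59, 16.6 and 12.9 CPM in chd8-/- intestine, against 13.4, 25.6 and 22.9 CPM for CV, with overlapping groups. Of 4 hemoglobin scavenger rows, 1 was lower, hpxb, a hemopexin that binds free heme, at −1.12 (SE 0.17, edgeR adjusted p = 0.002756). These edgeR counts stand beside 9.17% of all genes called and 5.19% called lower. DESeq2, which called 13.2% of all genes, called 2 heme and iron genes lower and 1 scavenger row lower. It called 4 membrane and enzyme rows higher and 4 lower.

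The red cell marker list had 10 rows, of which 1 was higher and 4 lower in chd8-/- intestine. The row that edgeR called higher was the SLC4A1 row ENSDARG00000024560. Both rows with the symbol SLC4A1 entered the list for slc4a1a, and the symbol does not say which of them is that gene. Summed over the list, CV libraries had 460 to 495 CPM, GF libraries 425 to 526 CPM and chd8-/- libraries 434 to 466 CPM, and no row was at 0 in any group. RHAG, a membrane protein of red cells, made up 59.0% to 71.0% of this sum, at 285 to 327 CPM in CV, 263 to 338 CPM in GF and 283 to 328 CPM in chd8-/-. The other 9 rows summed to 133 to 198 CPM in CV, 162 to 207 CPM in GF and 138 to 151 CPM in chd8-/-. Of these 9, alas2, cahz, epb41b, hemgn and klf1 had every chd8-/- library below every CV library, a separation that 15.6% of all genes had in that direction. SPTB, at 54.5, 63.6 and 58.9 CPM in chd8-/-, and gata1a lay within the CV range. The SLC4A1 row ENSDARG00000024560 was above it, at 42.9, 29.2 and 32.9 CPM against 16.1, 15.0 and 12.1 CPM for CV. The SLC4A1 row ENSDARG00000012881 overlapped CV. Mean hemgn, 1 of these 9, was 22.5 ± 3.29 CPM among CV and 8.68 ± 0.679 CPM among chd8-/- libraries (SD, n = 3 each). In bulk tissue fewer red cells and less globin RNA per cell cannot be told apart, and the part of red cell content in the globin differences was not tested.

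The second comparison asked how GF intestine differed from CV intestine. All 4 members had positive fold changes and none was called: edgeR called 0% of the 20954 genes tested, with 1249 genes at an unadjusted p under 0.05, and DESeq2 called 35 (0.168%), none of them a member. hbae1.3 was at 9.43 ± 1.71 CPM in GF and 5.28 ± 1.45 CPM in CV (SD, n = 3 each), with log2 fold change 0.85, SE 0.26 and an edgeR adjusted p of 0.8027. hbae3 was at 217 ± 22.0 CPM in GF and 159 ± 21.4 CPM in CV, 0.46 (SE 0.17, edgeR adjusted p = 0.8027). In these members, 2 of the 4 tested, all GF libraries were above all CV libraries, a separation that 5.10% of all genes had in that direction, and both had an unadjusted p under 0.05. hbae1.1 had 0.48 (SE 0.24) and hbae5 had 0.49 (SE 0.36), both with overlapping groups. The members' median was 0.48, and that of all genes tested was 0.012.

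The 4 HBE1 rows tested had log2 fold changes of 0.20 to 0.56 in GF intestine, with edgeR adjusted p of 0.8027 to 0.8971. None of the 24 globin regulators, 27 heme and iron genes, 30 red cell membrane and enzyme rows, 4 scavenger rows or 7 other globins tested was called. Among the last of these, hbae1.2 had a log2 fold change of 0.83 with SE 0.21 and an edgeR adjusted p of 0.8027. The brain and retina markers summed to as much as 538 CPM in a GF intestine library, against 27.5 to 31.2 CPM in CV, and their part in the globin values was not tested.

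The third comparison, GF against CV kidney, gave no called member and fold changes in both directions. edgeR called 0% of 21120 genes, with 1856 at an unadjusted p under 0.05, none of them a member, and DESeq2 called 176 (0.837%), none of them a member, with no adjusted p for hbae5. Log2 fold changes were 0.75 (SE 0.53) for hbae3, 0.67 (SE 0.93) for hbae1.1, 0.68 (SE 0.50) for hbae1.3 and −2.34 (SE 1.32) for hbae5, with edgeR adjusted p of 0.622 to 0.8456. The value of hbae5 rested on the 21.6 CPM of kidney CV replicate 1, and without that library it was 1.19. The 4 HBE1 rows had 0.18 to 1.25 with all libraries, with edgeR adjusted p of 0.5649 to 0.9378.

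The library labelled kidney GF replicate 2 had the lowest hbae3, hbae1.1 and hbae1.3 of its group, and kidney CV replicate 1 had the highest of its group. With GF replicate 2 left out, the fold changes of hbae3 and hbae1.1 were 1.16 and 1.23, with edgeR adjusted p of 0.3188 and 0.2745. With both libraries left out, 3 of the 4 members tested were called higher, where 4.43% of 21309 genes were called and 2.48% called higher. hbae3 then had 1.56 (edgeR adjusted p = 0.003657), hbae1.1 had 1.54 (edgeR adjusted p = 0.00388), hbae1.3 had 1.62 (edgeR adjusted p = 0.01366) and hbae5 had 1.504 (edgeR adjusted p = 0.1609). Of the 4 HBE1 rows, 3 were called higher as well, ENSDARG00000087390 at 1.92 (edgeR adjusted p = 0.001166), ENSDARG00000115405 at 1.86 (edgeR adjusted p = 0.0005796) and ENSDARG00000113599 at 1.41 (edgeR adjusted p = 0.000609), while ENSDARG00000045143 had 1.25 (edgeR adjusted p = 0.237). These libraries were left out after the data had been seen, and the choice removed the highest CV and the lowest GF values of the 4 members and the 4 HBE1 rows. Their separation in the remaining 4 libraries, and the HBE1 calls with it, are therefore descriptions.

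Red cell markers summed to 735 to 823 CPM in kidney GF and to 463 to 747 CPM in kidney CV, with kidney CV replicate 1 at 463 CPM. Within kidney CV, the lower sum of replicate 1 lay in RHAG, at 247 CPM against 516 and 483 CPM in replicates 2 and 3. The other 9 rows summed to 217, 231 and 220 CPM in kidney CV. RHAG in kidney GF was at 422, 498 and 494 CPM, overlapping kidney CV. There the other 9 rows summed to 402, 237 and 300 CPM. Every GF sum of these 9 rows was above every CV sum, though that of GF replicate 2 only by little, and its rows went both ways. There alas2, cahz, epb41b and gata1a, at 10.6, 9.22, 9.91 and 1.77 CPM, were below every kidney CV value. SPTB at 129 CPM and the SLC4A1 rows ENSDARG00000012881 and ENSDARG00000024560, at 24.8 and 43.9 CPM, were above every kidney CV value. hemgn and klf1 of GF replicate 2 lay within the kidney CV range. ENSDARG00000024560 was at 18.7 to 23.7 CPM in kidney CV. Without that row the sum of GF replicate 2 was no longer above the kidney CV sums. Of the 10 rows, 6 had their lowest and 3 their highest kidney CV level in replicate 1, and alas2 was among the highest, at 28.0 CPM against 15.5 and 15.8 CPM. In kidney chd8-/- the list summed to 578 to 1015 CPM, and the 9 rows without RHAG to 390, 218 and 175 CPM. All of these 9 rows but the SLC4A1 row ENSDARG00000024560 were highest in replicate 1. alas2 was at 49.5, 7.83 and 7.49 CPM and cahz at 70.9, 9.65 and 7.13 CPM in replicates 1, 2 and 3. SPTB was at 151, 93.0 and 64.6 CPM. ENSDARG00000024560 ran the other way, at 17.3, 66.7 and 64.6 CPM. Summed members in replicates 1, 2 and 3 were at 637, 138 and 235 CPM in kidney chd8-/-. They were at 674, 150 and 447 CPM in kidney GF and at 392, 209 and 176 CPM in kidney CV. The part of red cell content in the kidney globin values was not tested.

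The fourth comparison, chd8-/- against CV kidney, also called no member with all libraries. edgeR called 0% of 21060 genes, with 1895 at an unadjusted p under 0.05, none of them a member, and DESeq2 called 246 (1.22%), none of them a member, with no adjusted p for hbae1.1 and hbae5. hbae3 had a log2 fold change of 0.37, SE 0.53 and an edgeR adjusted p of 0.8772, hbae1.1 of −0.12 (SE 1.32, edgeR adjusted p = 0.9896), hbae1.3 of 0.34 (SE 0.60) and hbae5 of −2.73 (SE 1.76, edgeR adjusted p = 0.7097).

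Without the library labelled chd8-/- replicate 1, hbae1.1 was called lower, at −4.01 (edgeR adjusted p = 0.03366), as the 1 called member where 0.642% of genes were called and 0.300% called lower. With kidney CV replicate 1 also left out it was −3.72 (edgeR adjusted p = 0.0007435), where 10.3% of 21127 genes were called and 5.19% called lower. hbae3 was then −0.027, hbae1.3 was 0.16 and hbae5 was −0.97, none of them called. The 4 HBE1 rows were between −0.10 and 0.33. In the remaining kidney libraries, hbae1.1 was thus lower in chd8-/- without a called difference in its close copy hbae1.3 or in hbae3. These libraries too were left out after the data had been seen. The choice removed the highest chd8-/- value of hbae1.1, 15.8 CPM, and its highest CV value, 7.82 CPM. The chd8-/- libraries kept were at 0.20 and 0.51 CPM, so the separation of hbae1.1 that remained is a description.

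The ratio of hbae1.1 to hbae3 within a library showed the same division with no scaling between libraries. hbae1.1 had 0.153 to 0.733 counts per 100 hbae3 counts in 6 libraries, namely the 3 of intestine chd8-/-, kidney chd8-/- replicates 2 and 3 and the library labelled kidney GF replicate 2. In the other 12 libraries, including the library labelled kidney chd8-/- replicate 1, it had 2.19 to 3.53. No library lay between these ranges. The 3 low kidney libraries were those set apart by the 134 and 64 genes of the label check.

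The ratio of hbae1.3 to hbae3 was 3.03 to 5.82 in the same 6 libraries and 2.30 to 5.47 in the other 12. That of hbae1.2 was 2.29 to 4.21 in the 6 and 3.63 to 7.61 in the 12, and that of hbae4 was 0.0715 to 0.201 and 0.229 to 0.586. ENSDARG00000113599 had 65.9 to 100.3 counts per 100 hbae3 counts in the 6 and 43.3 to 69.2 in the 12. Of these 5 rows, hbae1.1 and hbae4 had ranges that did not touch, and in hbae4 the gap was small beside the spread. hbae4 had 388 counts over all 18 libraries. The 6 libraries were set apart by hbae1.1 itself, so these ranges are descriptions with no test. Whether reads of hbae1.1 were lost to a near-identical copy in these libraries was not tested.

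**Figure D4:**
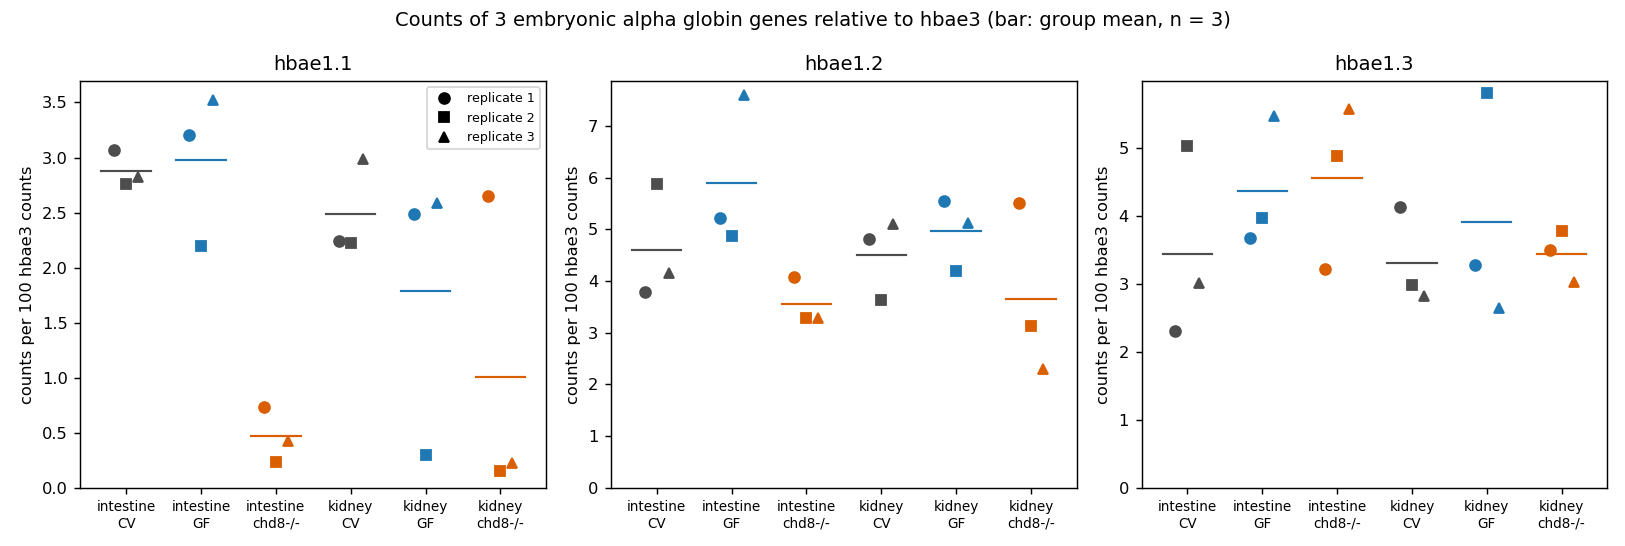
Counts of hbae1.1, hbae1.2 and hbae1.3 per 100 hbae3 counts in each library, on linear axes from 0, by replicate and with a bar at the mean of each group of 3. For hbae1.1, 6 libraries lie between 0.153 and 0.733 and the other 12 between 2.19 and 3.53, while for hbae1.3 the same libraries overlap.

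**Figure D5:**
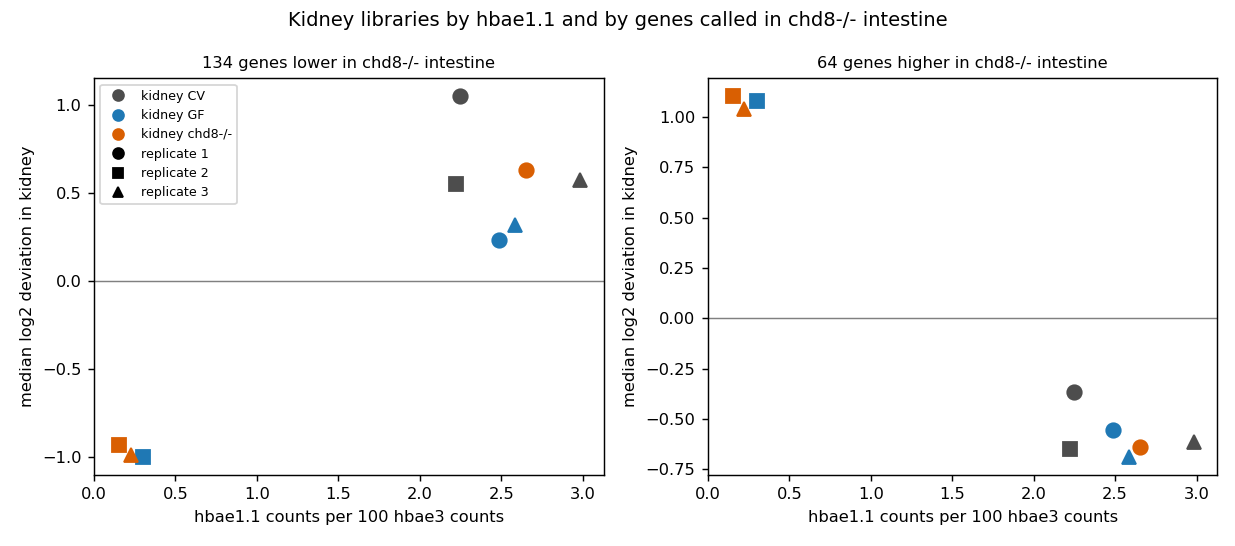
For the 9 kidney libraries, hbae1.1 counts per 100 hbae3 counts against the median log2 deviation from the kidney mean of the 134 genes called lower (left) and the 64 called higher (right) in chd8-/- intestine. The libraries labelled chd8-/- replicates 2 and 3 and GF replicate 2 lie together, and that labelled chd8-/- replicate 1 lies with the CV libraries and the other GF libraries.

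Between the tissues, few members passed the test, and hbae5 did not go one way. In CV fish 0 of the 4 members tested were called, where 37.2% of 21130 genes were, none had an unadjusted p under 0.05, and none was called by DESeq2, which called 41.2% of genes and gave hbae5 no adjusted p. The log2 fold changes were 0.59 (SE 0.30) for hbae3, 0.33 (SE 0.31) for hbae1.1, 0.67 (SE 0.43) for hbae1.3 and 1.97 (SE 1.47) for hbae5. Without kidney CV replicate 1, hbae5 was called lower in kidney, at −1.53 (edgeR adjusted p = 0.04242), where 40.1% of genes were called. In GF fish 0 of 4 were called, where 35.1% of 21422 genes were, again with none at an unadjusted p under 0.05 and none by DESeq2, which called 38.6% of genes. There hbae3 had 0.91 (SE 0.47, edgeR adjusted p = 0.1842) and hbae5 had −0.83 (SE 0.42, edgeR adjusted p = 0.1671). Of the 4 HBE1 rows, edgeR called 1 in GF fish, ENSDARG00000113599, higher in kidney at 1.16 (edgeR adjusted p = 0.02957), and 0 in CV fish. In CV fish that row had 0.84 (edgeR adjusted p = 0.0606, DESeq2 adjusted p = 0.01944), with every kidney library above every intestine library. Without the library labelled kidney GF replicate 2, hbae3 at 1.31 and hbae1.1 at 1.098 were called higher in GF kidney (edgeR adjusted p = 0.001644 and 0.008859), where 36.0% of genes were called. Kidney CV replicate 1 and this library were singled out after the data had been seen. Their removal took away the highest hbae5 of kidney CV and the lowest hbae3 and hbae1.1 of kidney GF, so these calls are descriptions.

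In chd8-/- fish 1 of the 4 members tested was called, where 37.0% of 20902 genes were. hbae3 was higher in kidney, at 319 ± 246 CPM against 87.5 ± 9.17 CPM in intestine (SD, n = 3 each), with log2 fold change 1.89, SE 0.49 and an edgeR adjusted p of 0.01818. DESeq2 called 2 members, where 40.9% of genes were called, and gave hbae1.1 no adjusted p. The edgeR call of hbae3 was lost without any 1 of the intestine chd8-/- libraries, with edgeR adjusted p of 0.05769 to 0.06421, and kept without any 1 of the kidney chd8-/- libraries, though at 1.05 (edgeR adjusted p = 0.002074) without the library labelled kidney chd8-/- replicate 1. All 4 HBE1 rows were higher as well, by 1.75 to 1.96 on the log2 scale, with edgeR adjusted p of 0.01231 to 0.02435. hbae1.1 had 3.82 (SE 1.47, edgeR adjusted p = 0.07692), and −0.14 without the library labelled kidney chd8-/- replicate 1, while it was called without replicate 2 (4.38, edgeR adjusted p = 0.03071) or replicate 3 (4.35, edgeR adjusted p = 0.03891). Each of these calls left out a low kidney value of hbae1.1, 0.20 CPM in replicate 2 or 0.51 CPM in replicate 3, so they are descriptions.

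The difference between tissues in the response to each condition was tested as an interaction over 12 libraries. For GF against CV, 0 of 4 members were called, where edgeR called 0% of 22368 genes, with 1291 at an unadjusted p under 0.05, none of them a member, and DESeq2 called 25 (0.113%), none of them a member. DESeq2 gave hbae5 no adjusted p there. For chd8-/- against CV, 0 of 4 members were called, where 0.153% of 22203 genes were, with none at an unadjusted p under 0.05 and none by DESeq2, which called 1.41% of genes. DESeq2 gave hbae1.1 no adjusted p in this interaction. hbae1.1 had an interaction of 3.48 (SE 1.68, edgeR adjusted p = 0.5386) and hbae3 of 1.29 (SE 0.62, edgeR adjusted p = 0.524). Without kidney CV replicate 1 and the library labelled kidney chd8-/- replicate 1, the interaction of hbae1.1 was −0.18 (edgeR adjusted p = 0.9258) and that of hbae3 was 0.84 (edgeR adjusted p = 0.1764). These libraries were left out after the data had been seen. They held the highest hbae1.1 and hbae3 of their kidney groups, so these values are descriptions. With all libraries the interaction of hbae1.1 did not pass the test, so its lower level in chd8-/- intestine was not shown to differ from the kidney.

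Across the 18 libraries, with each tissue's mean taken off, the members' log2 CPM moved together to different degrees. Pearson's r was 0.86 between hbae1.1 and hbae3, 0.86 between hbae1.3 and hbae3 and 0.65 between hbae1.1 and hbae1.3. hbae5 had r of 0.55 with hbae3, and 0.91 over the 9 intestine libraries against 0.47 over the 9 kidney libraries. These are descriptions over libraries that share scaling factors and groups.

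Among the 18563 genes outside the members with a mean of at least 1 CPM, the 8 with the pattern most like the summed members held all 4 HBE1 rows with more than 100 counts. Pearson's r over the 18 libraries, with each tissue's mean taken off, was 0.98 for ENSDARG00000115405 and 0.95 for ENSDARG00000087390. It was 0.94 for ENSDARG00000113599 and 0.92 for ENSDARG00000045143. The others were hbae1.2 (r 0.95), cenpn, a centromere protein (r 0.90), alas2 (r 0.90) and CPT2, a mitochondrial carnitine transferase (r 0.89). alas2 ran from 7.49 to 61.3 CPM. Over the 9 kidney libraries alone the first 5 were ENSDARG00000115405, ENSDARG00000087390, MBD3, ENSDARG00000113599 and hbae1.2, with r of 0.96 to 0.99. Over the 9 intestine libraries the first 5 were CCDC97, ddx43, ENSDARG00000115405, SLC16A1 and UNC93B1, with r of 0.97 to 0.99, so 1 globin row was among them.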

How the data were processed

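The authors deposited whole-number counts of reads per Ensembl gene in 4 tables, 1 for each comparison of GF or chd8-/- with CV in a tissue. The submitters' processing notes name the build GRCz11 and, among tools, featureCounts, Subread 2.0.1, the aligner STAR 2.7.9a, Trim Galore 0.6.7 and FastQC 0.11.9. How strand and multiply matching reads were handled is not given in the sources used here. No columns outside the 18 libraries were present.

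Rows were given symbols through a gene name table. Members, gene lists and tests were chosen with earlier results of these data known, and HBE1 rows were added after their values had been seen. The test was that of edgeR 4.0.16 under R 4.3.3 (TMM factors, filterByExpr, robust quasi-likelihood F-test, Benjamini-Hochberg adjustment over all genes, called under 0.05), in the 6 libraries of a comparison, or 12 for interactions. Standard errors are log2 fold changes over the root of the F statistic. CPM values use TMM factors over all 18 libraries. Log2 CPM for likeness used a prior count of 2. DESeq2 1.42.0 was an alternative, with others for scaling, filtering, blocking, summed copies and left-out libraries. The steps were tested on simulated counts.

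Named genes were all members in every comparison, at most 4 genes of a list (those called with the lowest p, otherwise those with the highest mean level), and the 8 and 5 genes most like the summed members.

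CV columns were identical in both kidney tables. In the intestine tables they were the same libraries numbered differently (1, 2 and 3 of the GF table were 3, 1 and 2 of the chd8-/- table, with 72.8% to 80.9% of genes equal), and globin rows differed by at most 7 counts. Intestine CV levels use the GF table's numbers. Leaving library sizes unscaled by TMM moved the median of all genes by −0.14 on the log2 scale in chd8-/- intestine.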

Additional observations from a re-analysis of the deposited data

Results flagged for a closer look

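With all libraries, the difference of hbae5 between GF and CV had opposite signs in the tissues. In intestine every GF library was above the CV mean on the log2 scale, and in kidney every GF library was below it (log2 CPM with a prior count of 2), though GF replicate 1 at 2.09 CPM was close to it. This gave a kidney minus intestine difference of −2.78 (SE 1.502). The interaction did not pass the test (edgeR adjusted p = 0.8593). The kidney CV mean held the 21.6 CPM of replicate 1, against 0.44 and 0.89 CPM in the other two CV libraries. Without that library the kidney fold change of hbae5 was 1.19, and the intestine fold change was 0.49.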

How the results depend on the processing

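In chd8-/- intestine 2 members were called, 1 with a minimum of 10 counts in every library (which removed hbae1.1) and 1 to 2 with a library left out. Without kidney CV replicate 1 and the library labelled kidney GF replicate 2, 3 members were called for GF kidney, where 4.43% of genes were called. Without kidney CV replicate 1 and the library labelled kidney chd8-/- replicate 1, 1 member was called for chd8-/- kidney, where 10.3% of genes were called. With all libraries 0 members and 0% of genes were called in either comparison. Members called without any 1 library were 0 to 1 in chd8-/- kidney and in kidney against intestine for CV, 0 to 2 for GF and 0 to 3 for chd8-/-. The latter count was 1 with all libraries, 2 with DESeq2, 2 of 2 with copies summed and 0 with no filter. 

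Directions turned with a kidney library left out. In GF kidney the range was −0.0088 to 1.23 for hbae1.1, −2.90 to 1.19 for hbae5 and −0.37 to 0.88 for ENSDARG00000045143. In chd8-/- kidney it was −4.01 to 0.44 for hbae1.1, −0.41 to 0.77 for hbae3, −0.50 to 1.01 for hbae1.3, −4.47 to 0.79 for hbae5, −0.58 to 0.62 for ENSDARG00000045143, −0.094 to 1.07 for ENSDARG00000087390, −0.12 to 0.96 for ENSDARG00000113599 and −0.45 to 0.89 for ENSDARG00000115405. In kidney against intestine it was −1.53 to 2.53 for hbae5 in CV, −0.13 to 1.098 for hbae1.1 in GF, and −0.14 to 4.38 for hbae1.1 and −1.28 to 1.104 for hbae5 in chd8-/-. Interactions were −0.42 to 0.75 for hbae1.1 and −0.16 to 0.70 for hbae3 in GF, and −0.47 to 4.05 for hbae1.1 in chd8-/-. With 2 libraries left out, signs turned for hbae5 in GF kidney (1.504), in chd8-/- kidney for hbae3 (−0.027), ENSDARG00000045143 (0.11) and ENSDARG00000115405 (−0.10), and for the chd8-/- interaction of hbae1.1 (−0.18). The cause was not tested beyond the libraries named.

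Correlations of same-numbered deviations over all genes were −0.18 to 0.01, which with 3 libraries per group cannot show whether replicate numbers pair the samples. In kidney, replicate 1 had the highest summed member level of each group, 392 CPM in CV, 674 CPM in GF and 637 CPM in chd8-/-. The fit with the replicate number as a block turned the sign of hbae1.1 in GF kidney (−0.031), in kidney against intestine for GF (−0.15) and in the GF interaction (−0.078), and of hbae5 in kidney against intestine for chd8-/- (−0.36), and it changed no member count.

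Genes called in all were 0 with edgeR and 35 with DESeq2 in GF intestine, 0 and 176 in GF kidney, and 0 and 246 in chd8-/- kidney. Without 1 library, chd8-/- intestine had 741 to 3069. For the interactions DESeq2 called 25 for GF and 307 for chd8-/- (34 with edgeR). Counts of hbae1.1 of 6 to 18 in the low libraries limit the precision of its fold changes.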
